A study of Rattus norvegicus with 12 samples.

Results

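The 170 genes described here encode solute carriers expressed in rat knee chondrocytes. They were taken from the deposited expression table by symbol, as family number, letter and member number after "Slc", and by a level of at least 1 FPKM (fragments scaled to transcript length and library size) in at least 3 of 12 libraries. Of 353 symbols with this form, 178 reached that level, and 8 of these were left out by name. The other 175 stayed under the level, and 38 of them were at 0 in all 12 libraries. The rule used the level and not the groups, so tests between groups are not fixed by it for members at that level in all groups. Of the 170 members, 154 were at 1 FPKM or more in all 12 libraries and 16 in 3 to 11. Among those 16, Slc8a1, Slc37a2 and Slc39a4 entered mainly through liposome libraries and Slc26a8 through the others. Just inside the limit were Slc9b2, Slc7a3 and Slc26a8, whose third-highest libraries held 1.07, 1.18 and 1.31 FPKM. Just outside it were Slc10a5, Slc37a1 and Slc16a14 at 0.96, 0.93 and 0.90 FPKM.

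Solute carriers are membrane proteins that move amino acids, sugars, ions, metals, nucleotides, vitamins and lipids across the plasma membrane and the membranes of mitochondria, Golgi, lysosomes and other compartments. Most use the gradient of sodium, protons or the exchanged solute itself and consume no ATP directly. Cartilage has no blood vessels, so its chondrocytes take up nutrients, and the sulfate and sugar precursors of the matrix, from fluid that diffuses through a dense and osmotically active matrix.

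The study compared 4 groups of 3 libraries each from Sprague Dawley rats, male according to the methods. In Lipo-CGS, knees with a ruptured anterior cruciate ligament were injected with liposomes carrying CGS21680, an agonist of the adenosine A2A receptor. In Lipo the ruptured knees received empty liposomes, in Saline they received saline, and Uninvolved knees had no rupture. Injections began 4 weeks after rupture and were repeated every 10 days for 8 weeks. Each library was made from chondrocytes of 3 rats that were released with pronase and collagenase and then cultured, so the values describe cultured cells. The methods give 5 to 6 rats per experimental group and do not say which libraries share rats, so the spread between libraries may be partly technical and the p-values measure that spread. Rupture together with saline injection is compared in Saline against Uninvolved, the liposome in Lipo against Saline, and the drug in Lipo-CGS against Lipo. Uninvolved libraries differ from the liposome groups in both rupture and injection.

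The libraries summed to between 406629.7 and 544170.2 FPKM, and 10858 to 11109 genes per library reached 1 FPKM. Read totals were not used here. Steps between low values gave relative depths of 0.902 to 1.087. All 9 chondrocyte markers were expressed, with a summed level of 11800 to 17200 FPKM in Lipo-CGS, 9490 to 15200 FPKM in Lipo, 5470 to 10100 FPKM in Saline and 8610 to 10100 FPKM in Uninvolved libraries. The 7 fibroblast markers summed to 785 to 795 FPKM in Lipo-CGS, 1910 to 2450 FPKM in Lipo, 393 to 1430 FPKM in Saline and 350 to 441 FPKM in Uninvolved libraries. The 7 leukocyte markers in the table summed to 27.1 to 37.0 FPKM in Lipo-CGS, 23.9 to 26.6 FPKM in Lipo, 46.2 to 50.8 FPKM in Saline and 45.0 to 71.2 FPKM in Uninvolved libraries. Cd3e was at 0 and Ptprc at most at 0.1 FPKM throughout, but 4 of the 7 reached the level for testing. By the rule given below, 3 were called lower in each comparison of a liposome group with Saline or Uninvolved, where 10.3% to 16.3% of all genes were. Osteoblast markers summed to 21.4 to 29.3 FPKM in Lipo-CGS, 40.6 to 93.4 FPKM in Lipo, 46.4 to 104 FPKM in Saline and 92.0 to 124 FPKM in Uninvolved libraries, and adipocyte markers to at most 14.0 FPKM. Endothelial, erythroid and muscle markers summed to at most 0.32, 0.05 and 0.54 FPKM. These marker sums moved with the groups, their part in the carrier results was not tested, and in bulk libraries fewer cells of a type and less RNA per cell cannot be told apart.

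The solute carriers were led by mitochondrial and metal carriers. The members took 0.741 to 0.949% of a library's total FPKM. The 33 carriers classed by family as mitochondrial held 29.1% of the members' summed FPKM over the 12 libraries, the 21 carriers of transition metals and heme 20.1%, and the 25 amino acid carriers 17.6%. On the FPKM scale, which is per length, the genes with the highest mean levels over the 12 libraries were the ADP/ATP carrier Slc25a4 at 353 FPKM, the mitochondrial phosphate carrier Slc25a3 at 242 FPKM, the amino acid exchanger subunit Slc3a2 at 171 FPKM, the zinc transporter Slc39a7 of the endoplasmic reticulum and Golgi at 148 FPKM and the neutral amino acid carrier Slc38a2 at 116 FPKM.

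In the comparisons of liposome groups with the others, more carriers were called higher than lower. Among all genes, on the deposited scale, more were called lower than higher. A member is said to rise or fall where limma gave an adjusted p under 0.05 over all 11373 genes tested and a fold over 1.5, with fold changes on the log2(FPKM + 0.5) scale, which understates the change of weakly expressed genes. In Lipo-CGS against Uninvolved, 30 of 170 members rose (17.6%, where 11.7% of all genes did) and 6 fell (3.53%, where 14.0% of all genes did). In Lipo against Uninvolved, 27 rose (15.9%, all genes 14.1%) and 11 fell (6.47%, all genes 16.3%). In Lipo-CGS against Saline, 29 rose (17.1%, all genes 8.23%) and 6 fell (3.53%, all genes 10.3%). In Lipo against Saline, 27 rose (15.9%, all genes 10.6%) and 5 fell (2.94%, all genes 12.3%). The median member changed by 0.18, 0.21, 0.21 and 0.20 on the log2 scale in these 4 comparisons, whereas the median over all genes stayed between -0.01 and 0.01. Rises and falls added together, the called share of members was below that of all genes in 3 of the 4 and above it in Lipo-CGS against Saline. In all, 58 members passed in at least 1 of the 4.

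These 4 comparisons share libraries and are not independent of each other. Without the 4 members that entered through one side, 28 of 166 rose and 6 fell in Lipo-CGS and 25 rose and 11 fell in Lipo against Uninvolved. All 6 liposome libraries lay above all 6 others in 42 members (24.7%, against 15.7% of all genes). They lay below them in 11 members (6.47%, against 19.1%). With both directions added together, separation was no more frequent among the members than among all genes. More of it was upward and less downward. The split between rises and falls depends on scaling. When each library was rescaled to an equal total, a choice made after seeing the data that moved the median of all genes by 0.18, 0.21, 0.08 and 0.12, the members that rose and fell numbered 49 and 4 in Lipo-CGS against Uninvolved, 55 and 4 in Lipo against Uninvolved, 38 and 5 in Lipo-CGS against Saline, and 43 and 4 in Lipo against Saline. The median member then changed by 0.34, 0.44, 0.28 and 0.33, above the shift of all genes in each.

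**Figure D1:**
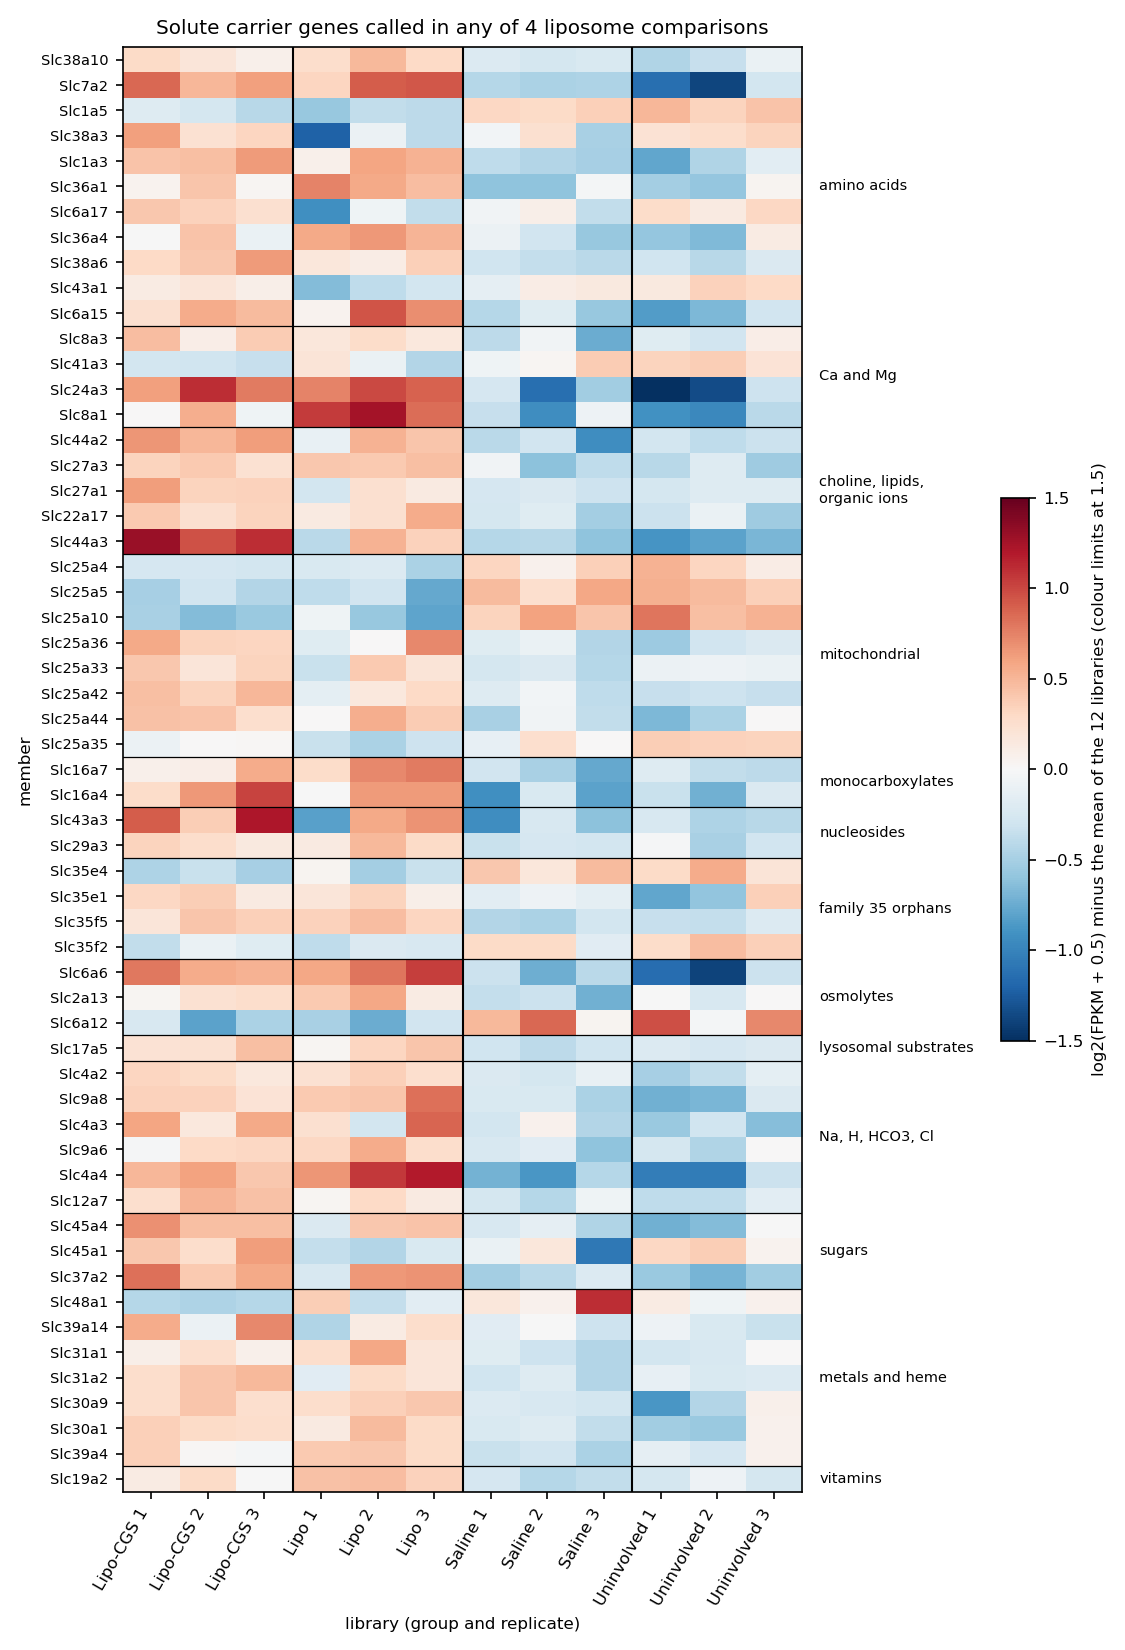
Rows are 57 of the 58 members called in at least 1 of the 4 comparisons of a liposome group with Saline or Uninvolved, ordered by substrate class, and columns are the 12 libraries. Colour gives log2(FPKM + 0.5) minus the member's mean over the 12 libraries, with limits at 1.5 on either side. Most rows are above their mean in the 6 liposome libraries at left and below it in the 6 others at right, while Slc1a5, Slc25a4, Slc25a5, Slc25a10 and Slc6a12 show the opposite order.

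Among the amino acid carriers, the cationic amino acid carrier Slc7a2, which imports arginine, lysine and ornithine, changed most. It measured 66.6, 51.4 and 55.97 in Lipo-CGS, 45.6, 68.8 and 69.5 in Lipo, 26.9, 26.1 and 26.2 in Saline and 16.3, 13.7 and 29.9 FPKM in Uninvolved chondrocytes. Every liposome library lay above every other library, and Uninvolved replicate 3 lay closest to the liposome groups. The log2 fold change was 1.59 ± 0.24, adjusted p = 0.000586 in Lipo-CGS and 1.65 ± 0.24, adjusted p = 0.000315 in Lipo against Uninvolved (limma), with 1.11 ± 0.24, adjusted p = 0.00499 and 1.17 ± 0.24, adjusted p = 0.00291 against Saline. Its widely expressed relative Slc7a1 stayed between 9.55 and 14.7 FPKM in the 12 libraries. The glutamate and aspartate carrier Slc1a3 measured 7.84, 7.92 and 9.14 in Lipo-CGS, 5.99, 8.83 and 8.37 in Lipo, 4.24, 4.07 and 3.87 in Saline and 3.09, 4.03 and 5.04 FPKM in Uninvolved chondrocytes. The liposome libraries were all above the others, Uninvolved replicate 3 being the nearest. It rose in all 4 comparisons, by 0.97 ± 0.17 (adjusted p = 0.000967) in Lipo-CGS and 0.86 ± 0.17 (adjusted p = 0.00129) in Lipo against Uninvolved. Slc6a15, a carrier of branched-chain amino acids, averaged 2.7 ± 0.349 in Lipo-CGS, 3.12 ± 1.07 in Lipo, 1.32 ± 0.25 in Saline and 1.09 ± 0.316 FPKM in Uninvolved chondrocytes (SD, n = 3 each). It also rose in all 4, and in Lipo-CGS against Saline the call was lost without Lipo-CGS replicate 2 (adjusted p = 0.0503).

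Further amino acid carriers differed between the liposome groups in which comparison they passed. The proton-coupled lysosomal carrier Slc36a1 averaged 3.75 ± 0.658 in Lipo-CGS, 5.2 ± 0.572 in Lipo, 2.38 ± 0.701 in Saline and 2.51 ± 0.753 FPKM in Uninvolved chondrocytes (SD, n = 3 each). Its relative Slc36a4 averaged 3.18 ± 0.755 in Lipo-CGS, 4.52 ± 0.242 in Lipo, 2.23 ± 0.451 in Saline and 2.18 ± 0.857 FPKM in Uninvolved chondrocytes (SD, n = 3 each). Both passed in Lipo, at log2 0.94 ± 0.20, adjusted p = 0.00228 and 0.95 ± 0.21, adjusted p = 0.00306 against Uninvolved and 1.01 ± 0.20 and 0.89 ± 0.21 against Saline, and neither did in Lipo-CGS. The direct difference of Lipo-CGS from Lipo was -0.43 ± 0.20, adjusted p = 0.281 for Slc36a1 and -0.47 ± 0.21, adjusted p = 0.269 for Slc36a4, so a difference between the liposome groups was not established. Slc38a6, of the family of sodium-coupled neutral amino acid carriers, averaged 4.07 ± 0.562 in Lipo-CGS, 3.36 ± 0.344 in Lipo, 2.1 ± 0.09 in Saline and 2.18 ± 0.191 FPKM in Uninvolved chondrocytes (SD, n = 3 each) and passed in Lipo-CGS, with 0.76 ± 0.12, adjusted p = 0.000619 against Uninvolved and 0.81 ± 0.12, adjusted p = 0.000778 against Saline. In Lipo it changed by 0.52 ± 0.12 and 0.57 ± 0.12, under the fold limit. The difference of Lipo-CGS from Lipo was 0.24 ± 0.12, adjusted p = 0.308.

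The neutral amino acid exchanger Slc1a5, a main entry route of glutamine, fell in all 4 comparisons. It measured 19.9, 18.99 and 16.98 in Lipo-CGS, 15.3, 17.5 and 17.3 in Lipo, 28.4, 27.9 and 29.4 in Saline and 32.4, 28.9 and 30.9 FPKM in Uninvolved chondrocytes. The 6 liposome libraries lay below the 6 others with a wide gap. Its log2 change was -0.71 ± 0.09, adjusted p = 0.000196 in Lipo-CGS and -0.86 ± 0.09, adjusted p = 6.46e-05 in Lipo against Uninvolved, and -0.61 ± 0.09, adjusted p = 0.000674 and -0.76 ± 0.09, adjusted p = 0.000226 against Saline. The Lipo-CGS calls were the weaker ones and went under the fold limit with equal totals, at -0.53 in both, and against Saline also without Lipo-CGS replicate 3, at -0.54. The exchanger that pairs the heavy chain Slc3a2 with the light chain Slc7a5 and imports leucine showed no call. Slc3a2 measured 182, 158 and 168 in Lipo-CGS, 119, 153 and 146 in Lipo, 179.7, 179.7 and 173 in Saline and 218, 205 and 169 FPKM in Uninvolved chondrocytes, and Slc7a5 22.3, 23.1 and 21.6 in Lipo-CGS, 33.5, 31.1 and 25.3 in Lipo, 27.3, 28.4 and 43.01 in Saline and 32.6, 32.9 and 35.9 FPKM in Uninvolved chondrocytes. For Slc3a2 the largest difference was -0.50 ± 0.12, adjusted p = 0.00468 in Lipo against Uninvolved, and for Slc7a5 -0.58 ± 0.16, adjusted p = 0.00945 in Lipo-CGS against Uninvolved, both short of a fold of 1.5. The starvation-inducible carrier Slc38a2 was even across the groups, between 106 and 128 FPKM.

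In all, 4 of 25 amino acid carriers rose and 1 fell in Lipo-CGS against Uninvolved, 6 rose and 4 fell in Lipo against Uninvolved, 4 rose and 1 fell in Lipo-CGS against Saline, and 5 rose and 1 fell in Lipo against Saline. Of all genes 11.7%, 14.1%, 8.23% and 10.6% rose and 14.0%, 16.3%, 10.3% and 12.3% fell in these comparisons, so that the 4 rises in Lipo-CGS and the 4 falls in Lipo against Uninvolved are near the share of all genes. The class median log2 change was 0.16, 0.15, 0.25 and 0.22. With equal totals, 8 rose and 1 fell in Lipo against Uninvolved. The 3 falls beside Slc1a5 in Lipo against Uninvolved were the glutamine carrier Slc38a3 (-0.84 ± 0.25, adjusted p = 0.015), the neutral amino acid carrier Slc6a17 (-0.69 ± 0.19, adjusted p = 0.00966) and the large neutral amino acid carrier Slc43a1 (-0.70 ± 0.13, adjusted p = 0.000925). None of the 3 passed with equal totals, at -0.61, -0.49 and -0.50. Slc38a3 and Slc6a17 also went under the fold limit without Lipo replicate 1, at -0.51 and -0.46.

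The taurine carrier Slc6a6 and the betaine carrier Slc6a12, both uptake routes for organic osmolytes, moved in opposite directions. Slc6a6 measured 17.6, 14.9 and 14.5 in Lipo-CGS, 15.1, 17.7 and 20.9 in Lipo, 7.85, 5.79 and 7.41 in Saline and 4.22, 3.47 and 7.87 FPKM in Uninvolved chondrocytes. The liposome libraries did not overlap with the others. Its log2 rise was 1.58 ± 0.23, adjusted p = 0.000488 in Lipo-CGS and 1.76 ± 0.23, adjusted p = 0.00019 in Lipo against Uninvolved, and 1.11 ± 0.23 and 1.29 ± 0.23 against Saline, adjusted p = 0.00408 and 0.00152. Slc6a12 measured 1.89, 1.12 and 1.53 in Lipo-CGS, 1.52, 1.18 and 1.82 in Lipo, 3.47, 4.61 and 2.4 in Saline and 5.01, 2.26 and 4.15 FPKM in Uninvolved chondrocytes. Liposome libraries reached at most 1.89 FPKM and the others at least 2.26 FPKM, and the fall was -1.06 ± 0.27, adjusted p = 0.00784 in Lipo-CGS and -1.06 ± 0.27, adjusted p = 0.00654 in Lipo against Uninvolved. Against Saline the falls of -0.97 ± 0.27 in Lipo-CGS and -0.97 ± 0.27 in Lipo were lost without Saline replicate 2 (adjusted p = 0.0597 and 0.0544), and the Lipo-CGS one also without Lipo-CGS replicate 2 (0.0616). The creatine carrier Slc6a8 stayed between 20.5 and 27.8 FPKM in the 12 libraries. The proton-coupled myo-inositol carrier Slc2a13 rose in Lipo-CGS (0.64 ± 0.15, adjusted p = 0.00646) and in Lipo (0.83 ± 0.15, adjusted p = 0.00145) against Saline but in neither against Uninvolved, and the Lipo-CGS change was 0.51 without Saline replicate 3.

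**Figure D2:**
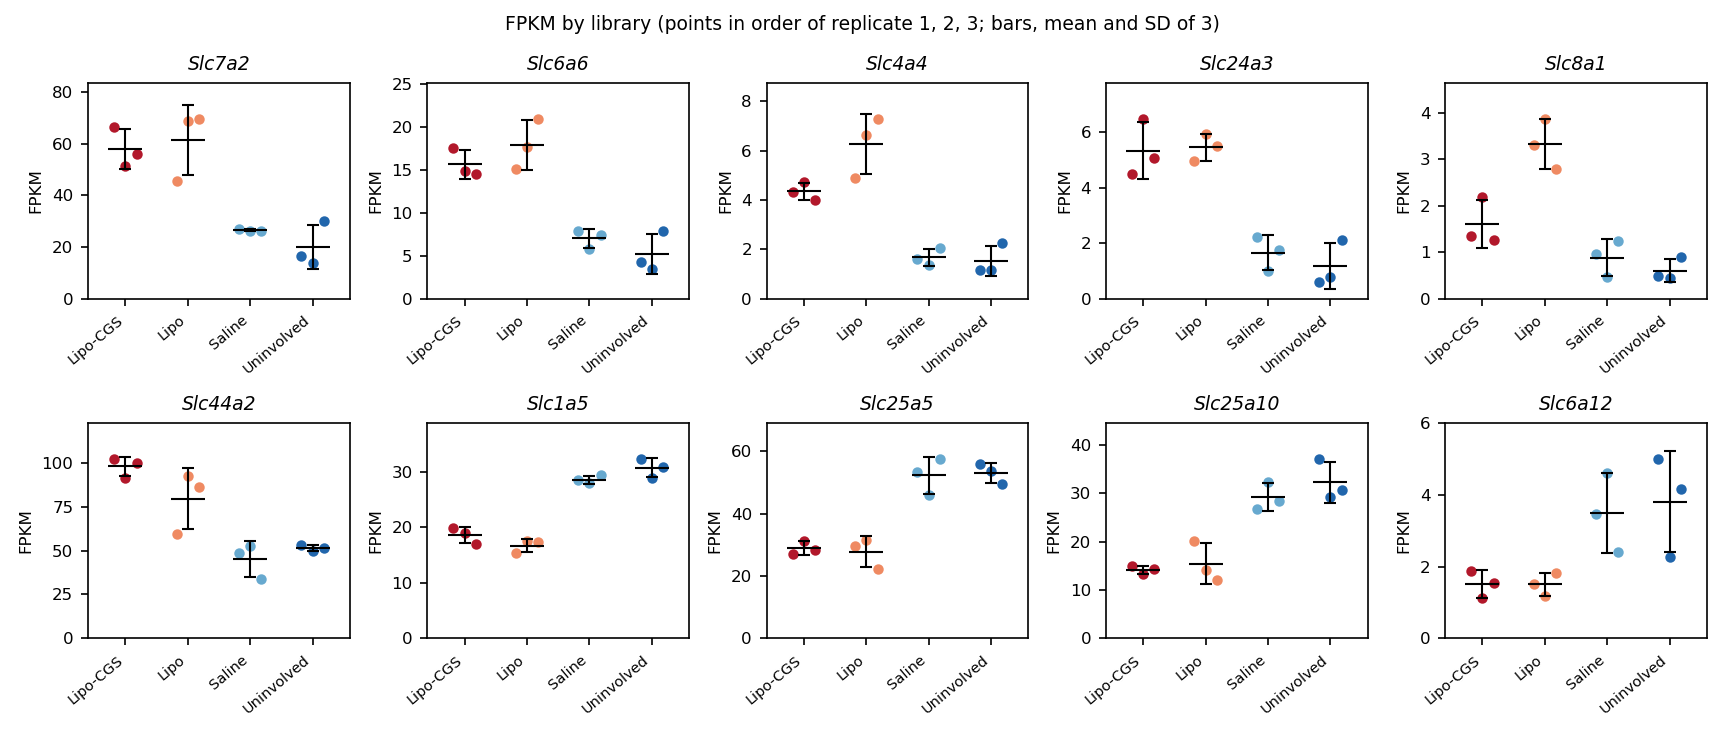
FPKM of 10 members in each library, with points for replicates 1 to 3 from left to right in each group and bars for the mean and SD of the 3 libraries. Slc7a2, Slc6a6, Slc4a4, Slc24a3, Slc8a1 and Slc44a2 are higher in all 6 liposome libraries than in all 6 others, and Slc1a5, Slc25a5, Slc25a10 and Slc6a12 are lower.

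Of the calcium exchangers of the plasma membrane, Slc24a3 rose in all 4 comparisons. Slc24a3, which exchanges sodium for calcium and potassium, measured 4.48, 6.48 and 5.06 in Lipo-CGS, 4.95, 5.92 and 5.5 in Lipo, 2.23, 0.98 and 1.76 in Saline and 0.59, 0.78 and 2.12 FPKM in Uninvolved chondrocytes. The liposome libraries were all above the others, of which 3 were under 1 FPKM. The log2 rise was 1.91 ± 0.30, adjusted p = 0.000679 in Lipo-CGS and 1.95 ± 0.30, adjusted p = 0.000402 in Lipo against Uninvolved, and 1.47 ± 0.30, adjusted p = 0.00371 and 1.51 ± 0.30, adjusted p = 0.0025 against Saline. The sodium/calcium exchanger Slc8a1 measured 1.35, 2.19 and 1.26 in Lipo-CGS, 3.31, 3.87 and 2.79 in Lipo, 0.95, 0.46 and 1.24 in Saline and 0.48, 0.44 and 0.89 FPKM in Uninvolved chondrocytes. Lipo libraries were the highest 3 and Lipo-CGS libraries came next, with no overlap. Slc8a1 rose in Lipo-CGS against Uninvolved (0.92 ± 0.25, adjusted p = 0.00988), while Lipo-CGS against Saline gave 0.62 ± 0.25, adjusted p = 0.0669. In Lipo it rose against both Uninvolved (1.81 ± 0.25, adjusted p = 0.000232) and Saline (1.5 ± 0.25, adjusted p = 0.00105). Slc8a1 belongs to the members that reached the level through the liposome libraries, so that its direction was in part fixed by the choice. The plasma membrane sodium/calcium exchanger Slc8a3 measured 11.2, 8.6 and 10.5 in Lipo-CGS, 9.04, 9.75 and 8.98 in Lipo, 5.97, 7.65 and 4.54 in Saline and 6.95, 6.43 and 8.6 FPKM in Uninvolved chondrocytes. It was called against Saline only, in Lipo-CGS (0.71 ± 0.17, adjusted p = 0.00677) and in Lipo (0.60 ± 0.17, adjusted p = 0.0122), and both calls went under the fold limit without Saline replicate 3 (0.54 and 0.43), the Lipo one also without Lipo replicate 2 (0.56), with weighted libraries (0.54) and with a pseudocount of 1 FPKM (0.56).

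The magnesium carriers Slc41a1 and Slc41a2 passed in no comparison, with 19.5 to 30.6 FPKM and 13.9 to 21.4 FPKM over the 12 libraries. Slc41a3, a mitochondrial magnesium exporter, averaged 5.27 ± 0.126 in Lipo-CGS, 6.21 ± 1.44 in Lipo, 7.3 ± 1.31 in Saline and 8.33 ± 0.532 FPKM in Uninvolved chondrocytes (SD, n = 3 each). It fell in Lipo-CGS against Uninvolved by -0.61 ± 0.15 (adjusted p = 0.00691), which went under the fold limit with equal totals (-0.44) and without Uninvolved replicate 2 (-0.58). Of the 7 calcium and magnesium carriers, 2 rose and 1 fell in Lipo-CGS and 2 rose and 0 fell in Lipo against Uninvolved (all genes 11.7% and 14.0%, and 14.1% and 16.3%), and 2 rose in Lipo-CGS and 3 in Lipo against Saline with 0 falls (all genes 8.23% and 10.6% higher, 10.3% and 12.3% lower). Except in Lipo-CGS against Saline, these rises include Slc8a1, whose direction was in part fixed by the choice.

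Of the 20 carriers of sodium, protons, bicarbonate and chloride, 5 rose in Lipo-CGS against Uninvolved (all genes 11.7%), 5 in Lipo against Uninvolved (14.1%), 3 in Lipo-CGS against Saline (8.23%) and 3 in Lipo against Saline (10.6%), and the other 15 to 17 were not called. Falls numbered 0 in each, where 10.3% to 16.3% of all genes fell. The 3 rises in Lipo against Saline are near the share of all genes. The class median log2 change was 0.37, 0.36, 0.22 and 0.34. The electrogenic sodium bicarbonate cotransporter Slc4a4 led them. It measured 4.32, 4.71 and 4.01 in Lipo-CGS, 4.9, 6.62 and 7.29 in Lipo, 1.59, 1.36 and 2.05 in Saline and 1.17, 1.15 and 2.24 FPKM in Uninvolved chondrocytes. Every liposome library held more than every other one, and Lipo libraries were above Lipo-CGS libraries. The log2 rise was 1.30 ± 0.21, adjusted p = 0.0007 in Lipo-CGS and 1.77 ± 0.21, adjusted p = 0.000134 in Lipo against Uninvolved, and 1.17 ± 0.21, adjusted p = 0.00194 and 1.64 ± 0.21, adjusted p = 0.000383 against Saline. The difference of Lipo-CGS from Lipo was -0.47 ± 0.21, adjusted p = 0.259.

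Other acid-base carriers moved less. Slc9a8, a sodium/proton exchanger of the Golgi, measured 13.3, 13.2 and 12.01 in Lipo-CGS, 13.7, 13.9 and 18.7 in Lipo, 8.75, 8.76 and 7.3 in Saline and 6.04, 6.23 and 8.8 FPKM in Uninvolved chondrocytes, the libraries without liposomes reaching at most 8.80 FPKM. It rose in all 4 comparisons, by 0.84 ± 0.15, adjusted p = 0.00128 in Lipo-CGS and 1.09 ± 0.15, adjusted p = 0.000256 in Lipo against Uninvolved. Its Lipo-CGS rise against Saline, 0.61 ± 0.15, lay at the fold limit and dropped to 0.58 without Lipo-CGS replicate 1 and 0.53 without Saline replicate 3. The anion exchanger Slc4a2 averaged 45.6 ± 2.68 in Lipo-CGS, 46.4 ± 2.28 in Lipo, 33.2 ± 1.85 in Saline and 30.2 ± 3.91 FPKM in Uninvolved chondrocytes (SD, n = 3 each) and rose against Uninvolved by 0.59 ± 0.10 in Lipo-CGS and 0.62 ± 0.10 in Lipo, close to the fold limit, under which it went without Uninvolved replicate 1 (0.51 and 0.54). The sodium, potassium and chloride cotransporter Slc12a2 averaged 16.5 ± 1.02 in Lipo-CGS, 21.3 ± 0.86 in Lipo, 14.6 ± 2.96 in Saline and 16.4 ± 1.66 FPKM in Uninvolved chondrocytes (SD, n = 3 each), with no call and the largest difference in Lipo against Saline (0.55 ± 0.13, adjusted p = 0.0064). Slc12a4 and Slc4a7 had no call either, at 39.3 to 58.4 FPKM and 7.49 to 12.8 FPKM.

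**Figure D3:**
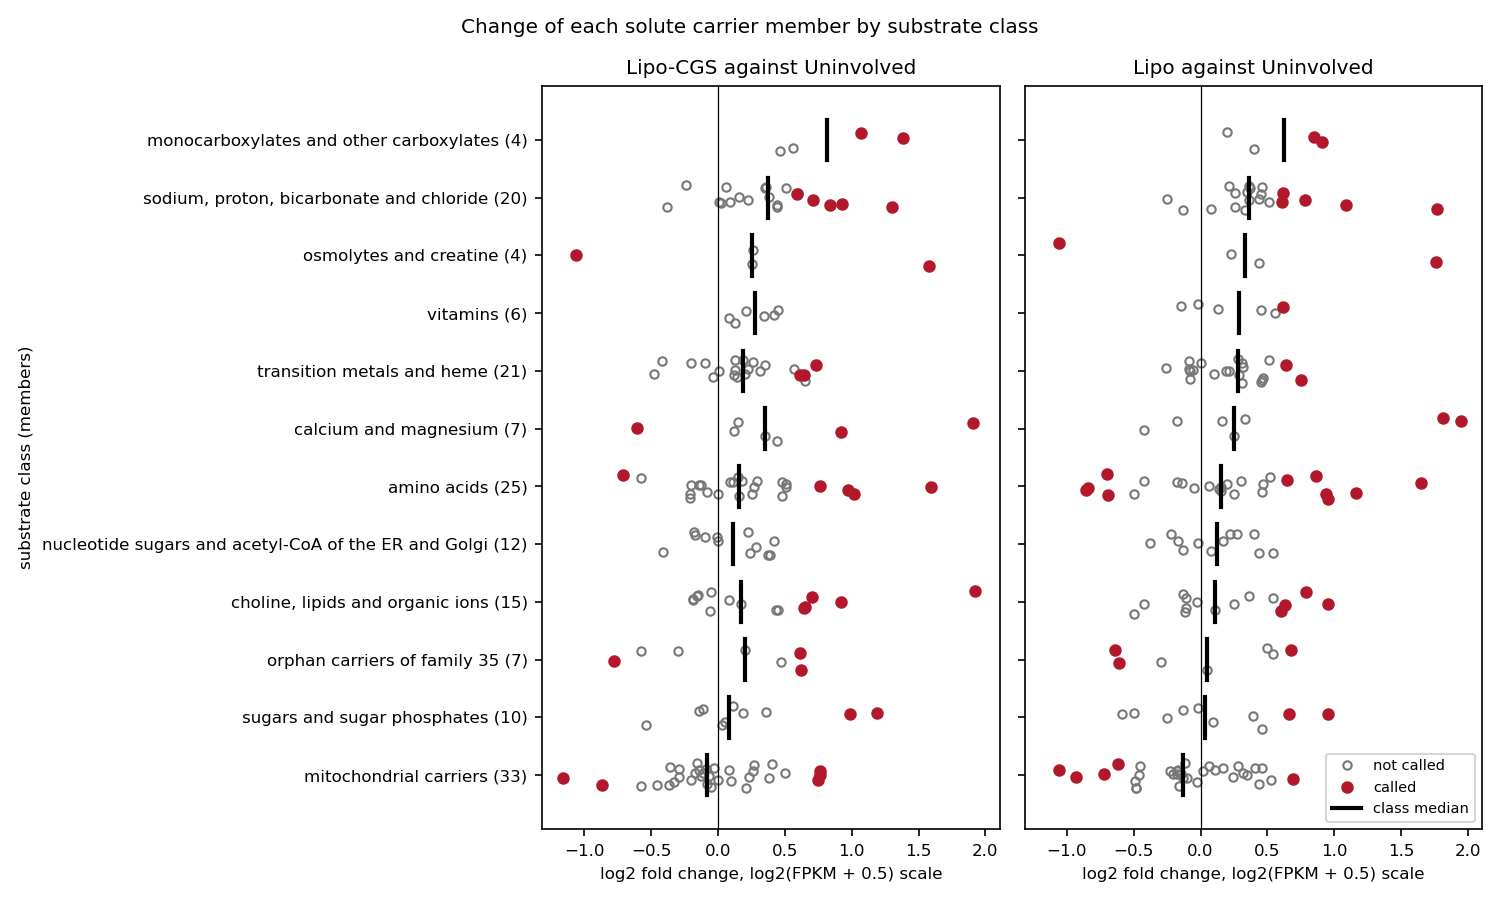
Log2 fold change of each member, on the log2(FPKM + 0.5) scale, in Lipo-CGS (left) and Lipo (right) against Uninvolved, for the 12 classes with at least 4 members (164 members). Filled points are called members, open points the others, and black lines class medians. The mitochondrial carriers are the class with a median under 0 in both panels, at -0.08 in Lipo-CGS and -0.13 in Lipo, and the 20 ion carriers have medians of 0.37 and 0.36.

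Among the 33 mitochondrial carriers, the ADP/ATP carrier Slc25a5 and the dicarboxylate carrier Slc25a10 fell in all 4 comparisons. Slc25a5 measured 27.01, 31.3 and 28.2 in Lipo-CGS, 29.5, 31.6 and 22.3 in Lipo, 53.5, 45.9 and 57.6 in Saline and 55.8, 53.8 and 49.4 FPKM in Uninvolved chondrocytes. Liposome libraries reached at most 31.6 FPKM and the others at least 45.9 FPKM. The log2 fall was -0.87 ± 0.13, adjusted p = 0.00052 in Lipo-CGS and -0.93 ± 0.13, adjusted p = 0.000244 in Lipo against Uninvolved, and -0.84 ± 0.13, adjusted p = 0.000977 and -0.91 ± 0.13, adjusted p = 0.000564 against Saline. Slc25a4, its more abundant relative, measured 289, 289 and 284 in Lipo-CGS, 293, 298 and 248 in Lipo, 431, 361 and 439.8 in Saline and 496, 431 and 371 FPKM in Uninvolved chondrocytes. The 6 liposome libraries lay below the 6 others here too. It passed in Lipo against Uninvolved (-0.62 ± 0.13, adjusted p = 0.00183) and changed by -0.58 ± 0.13 in Lipo-CGS against Uninvolved, under the fold limit. The Lipo call went under the limit with equal totals (-0.38), without Lipo replicate 3 (-0.54) and without Uninvolved replicate 1 (-0.52). The 2 genes are similar in sequence, so single reads of 50 bases may be assigned to either, and the split between them is uncertain.

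The dicarboxylate carrier Slc25a10, which exchanges malate or succinate for phosphate, measured 14.9, 13.3 and 14.3 in Lipo-CGS, 20.2, 14.2 and 12.02 in Lipo, 26.8, 32.4 and 28.4 in Saline and 37.2, 29.1 and 30.6 FPKM in Uninvolved chondrocytes. Liposome libraries reached at most 20.2 FPKM and the others at least 26.8 FPKM. The fall was -1.16 ± 0.16, adjusted p = 0.000377 in Lipo-CGS and -1.06 ± 0.16, adjusted p = 0.000361 in Lipo against Uninvolved, and -1.02 ± 0.16, adjusted p = 0.00115 and -0.92 ± 0.16, adjusted p = 0.00132 against Saline. Slc25a35, a carrier without an assigned substrate, averaged 1.26 ± 0.0666 in Lipo-CGS, 0.88 ± 0.085 in Lipo, 1.35 ± 0.255 in Saline and 1.77 ± 0.0265 FPKM in Uninvolved chondrocytes (SD, n = 3 each), and it fell in Lipo against Uninvolved (-0.72 ± 0.13, adjusted p = 0.000875) but not with equal totals (-0.55). The phosphate carrier Slc25a3 averaged 210.0 ± 9.53 in Lipo-CGS, 237 ± 15.2 in Lipo, 257 ± 8.61 in Saline and 264 ± 19.7 FPKM in Uninvolved chondrocytes (SD, n = 3 each) and the citrate carrier Slc25a1 36.4 ± 0.559 in Lipo-CGS, 37.2 ± 2.02 in Lipo, 34.5 ± 0.935 in Saline and 38.1 ± 2.42 FPKM in Uninvolved chondrocytes (SD, n = 3 each), with no call for either.

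Summed over the class, mitochondrial carriers held between 1002.1 and 1015.7 FPKM in Lipo-CGS and between 940.8 and 1050.2 FPKM in Lipo libraries, against 1184.3 to 1268.0 FPKM in Saline and 1180.0 to 1380.1 FPKM in Uninvolved libraries. The liposome libraries all lay below the others, a sum that Slc25a4 and Slc25a3 dominate. By members, 3 of 33 rose and 2 fell in Lipo-CGS against Uninvolved, 1 rose and 4 fell in Lipo against Uninvolved, 4 rose and 2 fell in Lipo-CGS against Saline, and 1 rose and 2 fell in Lipo against Saline. Of all genes 11.7%, 14.1%, 8.23% and 10.6% rose and 14.0%, 16.3%, 10.3% and 12.3% fell in these, so that the 3 rises in Lipo-CGS against Uninvolved are near the share of all genes and the 4 falls in Lipo below it. Among the rises was Slc25a42, which carries coenzyme A and adenosine nucleotides. It averaged 10.1 ± 0.598 in Lipo-CGS, 8.04 ± 1.3 in Lipo, 6.38 ± 0.821 in Saline and 5.74 ± 0.0954 FPKM in Uninvolved chondrocytes (SD, n = 3 each) and rose in Lipo-CGS against Uninvolved (0.76 ± 0.12, adjusted p = 0.000694) and Saline (0.63 ± 0.12, adjusted p = 0.00272), the second going under the fold limit without Saline replicate 3 (0.54). The malate and oxoglutarate carrier Slc25a11 was not called, at -0.17 ± 0.09 in Lipo-CGS and -0.16 ± 0.09 in Lipo against Uninvolved. With equal totals, 5 rose and 2 fell in Lipo against Uninvolved. The class median became 0.10, where the median of all genes was 0.21. On the deposited scale the class median in this comparison was -0.13 and that of all genes -0.01. The sign of the class median thus depends on scaling, while in both scalings it lay below the median of all genes.

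The choline, lipid and organic ion carriers rose where they changed. Slc44a2, a choline transporter-like protein that also carries choline into mitochondria, measured 102, 91.6 and 99.95 in Lipo-CGS, 59.7, 92.8 and 86.2 in Lipo, 48.8, 52.8 and 33.6 in Saline and 53.2, 49.6 and 51.7 FPKM in Uninvolved chondrocytes. The liposome libraries were all above the others, with Lipo replicate 1 the lowest of them. The rise was 0.92 ± 0.18, adjusted p = 0.00177 in Lipo-CGS and 0.60 ± 0.18, adjusted p = 0.014 in Lipo against Uninvolved, and 1.14 ± 0.18, adjusted p = 0.00106 and 0.81 ± 0.18, adjusted p = 0.00379 against Saline. The Lipo rise over Uninvolved was lost without Lipo replicate 2 (0.47), Lipo replicate 3 (0.53) or Uninvolved replicate 2 (0.57). Its relative Slc44a3 measured 5.83, 4.51 and 5.05 in Lipo-CGS, 1.45, 3.2 and 2.78 in Lipo, 1.41, 1.43 and 1.19 in Saline and 0.89, 0.97 and 1.1 FPKM in Uninvolved chondrocytes. Lipo-CGS libraries were the highest 3 of the 12, and Lipo libraries came next. The log2 rise was 1.92 ± 0.20, adjusted p = 0.00013 in Lipo-CGS and 0.95 ± 0.20, adjusted p = 0.00244 in Lipo against Uninvolved, and 1.61 ± 0.20, adjusted p = 0.000469 and 0.64 ± 0.20, adjusted p = 0.0242 against Saline. The last of these was lost without Lipo replicate 2 (0.46) or 3 (0.55) or Saline replicate 3 (0.58).

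The fatty acid transporter Slc27a1 measured 33.3, 27.2 and 27.3 in Lipo-CGS, 17.6, 25.4 and 23.6 in Lipo, 17.9, 18.4 and 17.2 in Saline and 17.7, 18.6 and 18.7 FPKM in Uninvolved chondrocytes. Lipo-CGS libraries were above all others, and Lipo replicate 1 fell among the libraries without liposomes. Slc27a1 rose in Lipo-CGS against Uninvolved (0.65 ± 0.13, adjusted p = 0.00176) and Saline (0.69 ± 0.13, adjusted p = 0.00216), and in Lipo it changed by 0.25 ± 0.13, adjusted p = 0.111 and 0.29 ± 0.13, adjusted p = 0.0789. The rise over Uninvolved fell to 0.56 without Lipo-CGS replicate 1. The carnitine carrier Slc22a5, at 3.04 to 7.84 FPKM, and the members of the bile acid family Slc10a3, at 31.9 to 39.4 FPKM, and Slc10a7, at 9.81 to 13.0 FPKM, passed in no comparison. Of the 15 members of the class, 5 rose in Lipo-CGS and 4 in Lipo against Uninvolved, 5 in Lipo-CGS and 4 in Lipo against Saline, and 0 fell. Of all genes 11.7%, 14.1%, 8.23% and 10.6% rose and 14.0%, 16.3%, 10.3% and 12.3% fell in these.

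Called members among the carriers of transition metals and heme moved zinc, copper or heme. The zinc exporter Slc30a1 measured 9.17, 8.7 and 8.57 in Lipo-CGS, 7.81, 10.02 and 8.68 in Lipo, 5.93, 6.09 and 5.37 in Saline and 4.78, 4.63 and 7.41 FPKM in Uninvolved chondrocytes. The liposome libraries were all above the others, Uninvolved replicate 3 being the next. The rise over Uninvolved was 0.64 ± 0.15, adjusted p = 0.00543 in Lipo-CGS and 0.64 ± 0.15, adjusted p = 0.00448 in Lipo, and it went under the fold limit without Uninvolved replicate 1 (0.55 and 0.54) or 2 (0.53 and 0.52) and, for Lipo, without Lipo replicate 2 (0.55). Against Saline it changed by 0.57 ± 0.15 and 0.56 ± 0.15, under the limit. Slc30a1 is a known target of the zinc-sensing factor MTF1, which binds metal response elements, and its 250 bases before the start in RefSeq (GRCr8, chr13:106021769-106022018, plus strand) are shown for that reason, with matches to the element in capitals.
Slc30a1: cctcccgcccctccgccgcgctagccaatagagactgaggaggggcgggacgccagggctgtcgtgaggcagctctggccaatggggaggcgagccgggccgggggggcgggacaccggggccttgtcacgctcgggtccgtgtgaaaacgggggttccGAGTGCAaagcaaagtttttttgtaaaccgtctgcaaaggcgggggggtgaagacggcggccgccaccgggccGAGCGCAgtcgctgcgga
The 2 matches, GAGTGCA at base -91 and GAGCGCA at base -18 from the start, are the reverse complements of TGCACNC and TGCGCNC. Either form on either strand was found in 41 of the 130 members with a promoter in RefSeq (31.5%) and in 6883 of 33469 promoters in all (20.6%), so a match is common and describes letters only. The promoters in all were not limited to expressed genes. Mtf1 itself was below the filter, at 0.417 ± 0.0569 FPKM in Lipo-CGS, 0.417 ± 0.0252 FPKM in Lipo, 0.29 ± 0.052 FPKM in Saline and 0.243 ± 0.0666 FPKM in Uninvolved libraries (SD, n = 3 each).

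Slc39a14 and Slc39a8, importers of zinc, manganese and iron at the plasma membrane, varied more between replicates. Slc39a14 measured 107, 68.5 and 119.77 in Lipo-CGS, 52.9, 79.05 and 87.4 in Lipo, 64.4, 72.5 and 58.6 in Saline and 69.1, 62.03 and 57.8 FPKM in Uninvolved chondrocytes. Lipo-CGS replicates 1 and 3 were above all others, and replicate 2 was within the range of the Saline and Uninvolved libraries. Its rise in Lipo-CGS against Uninvolved (0.61 ± 0.21, adjusted p = 0.0341) was lost without Lipo-CGS replicate 1 (adjusted p = 0.109) or 3 (0.134) and without Uninvolved replicate 1 (0.0520), 2 (0.0821) or 3 (0.0812). Slc39a8 measured 40.1, 33.5 and 53.6 in Lipo-CGS, 14.8, 38.5 and 26.3 in Lipo, 15.6, 32.5 and 25.04 in Saline and 31.5, 18.2 and 31.9 FPKM in Uninvolved chondrocytes. The groups overlapped, Lipo replicate 1 being the lowest library and Lipo-CGS replicate 3 the highest, and no comparison passed. The iron carrier Slc11a2 averaged 17.4 ± 0.986 in Lipo-CGS, 16.6 ± 1.91 in Lipo, 14.2 ± 1.27 in Saline and 13.6 ± 1.87 FPKM in Uninvolved chondrocytes (SD, n = 3 each), with no call. The most abundant zinc carriers of the class, Slc39a7 in the endoplasmic reticulum and Golgi and Slc39a13 in Golgi and vesicles, stayed at 131 to 174 FPKM and 83.4 to 127 FPKM with no call.

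The copper carriers were called once each. Slc31a1, which imports copper, measured 39.0, 43.9 and 38.7 in Lipo-CGS, 44.1, 54.97 and 41.7 in Lipo, 32.1, 29.5 and 26.99 in Saline and 30.3, 30.99 and 36.8 FPKM in Uninvolved chondrocytes. It rose in Lipo against Saline (0.65 ± 0.12, adjusted p = 0.0016), under the fold limit without Lipo replicate 2 (0.53) or with weighted libraries (0.57). Its relative Slc31a2 measured 25.5, 28.3 and 29.8 in Lipo-CGS, 18.8, 25.99 and 24.03 in Lipo, 17.1, 18.5 and 15.5 in Saline and 19.4, 17.96 and 18.3 FPKM in Uninvolved chondrocytes. It rose in Lipo-CGS against Saline (0.69 ± 0.12, adjusted p = 0.00157), and the difference of Lipo-CGS from Lipo was 0.28 ± 0.12, adjusted p = 0.23.

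The heme carrier Slc48a1 of lysosomes measured 68.2, 66.4 and 68.1 in Lipo-CGS, 119, 71.4 and 82.3 in Lipo, 104, 95.8 and 198 in Saline and 100.11, 87.4 and 95.8 FPKM in Uninvolved chondrocytes. Saline replicate 3 was far above the rest of its group, Lipo replicate 1 came next, and the Lipo-CGS libraries were the lowest. Slc48a1 fell in Lipo-CGS against Saline (-0.89 ± 0.24, adjusted p = 0.0147), and without Saline replicate 3 the change was -0.56, under the fold limit. In all, 3 of the 21 metal and heme carriers rose in Lipo-CGS and 2 in Lipo against Uninvolved with 0 falls, and 1 rose and 1 fell in Lipo-CGS and 2 rose in Lipo against Saline. The last 2 were Slc31a1 and Slc39a4 (0.73 ± 0.15, adjusted p = 0.00266). Slc39a4 went under the fold limit with a pseudocount of 1 FPKM (0.55). It reached the level mainly through liposome libraries, so that its direction was in part fixed by the choice. Of all genes 11.7% and 14.1% rose against Uninvolved and 8.23% and 10.6% against Saline, so that the rises are near or below the share of all genes, while 10.3% to 16.3% of all genes fell.

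Among the genes that work with these metal carriers, the zinc-binding metallothionein Mt2A fell in Lipo to 82.3 ± 44.4 FPKM, against 321 ± 75.0 FPKM in Saline and 402 ± 192 FPKM in Uninvolved libraries (SD, n = 3 each). The log2 change was -2.37 (adjusted p = 0.00186, limma) against Uninvolved and -2.13 (adjusted p = 0.00481) against Saline. In Lipo-CGS, Mt2A averaged 299 ± 118 FPKM, and its difference from Lipo was 1.97 (adjusted p = 0.0878). The ferritin heavy chain Fth1 fell in all 4 comparisons, by -0.71 in Lipo-CGS and -1.22 in Lipo against Uninvolved and by -0.67 and -1.17 against Saline. Over the 23 partner genes listed, 22 were in the table and 16 were tested. Of these, 4 rose and 1 fell in Lipo-CGS and 0 rose and 3 fell in Lipo against Uninvolved, and 4 rose and 3 fell in Lipo-CGS and 0 rose and 3 fell in Lipo against Saline. Of all genes 11.7% rose and 14.0% fell in Lipo-CGS and 14.1% rose and 16.3% fell in Lipo against Uninvolved, and 8.23% rose and 10.3% fell and 10.6% rose and 12.3% fell against Saline, so that the 3 falls in Lipo against Uninvolved are near the share of all genes.

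Monocarboxylate carriers rose in part. The lactate and pyruvate carrier Slc16a1 measured 39.1, 33.0 and 45.9 in Lipo-CGS, 27.3, 38.9 and 31.98 in Lipo, 29.7, 28.8 and 27.3 in Saline and 26.2, 25.1 and 33.7 FPKM in Uninvolved chondrocytes, with overlapping groups and no call. Slc16a7, which carries pyruvate and lactate with higher affinity, measured 5.74, 5.81 and 8.16 in Lipo-CGS, 6.64, 9.22 and 9.64 in Lipo, 4.35, 3.72 and 2.96 in Saline and 4.65, 4.09 and 3.99 FPKM in Uninvolved chondrocytes, each liposome library above each of the others. It rose in Lipo against Uninvolved (0.91 ± 0.17, adjusted p = 0.00123) and in both liposome groups against Saline (Lipo-CGS 0.76 ± 0.17, adjusted p = 0.00645, Lipo 1.10 ± 0.17, adjusted p = 0.000835), and Lipo-CGS against Uninvolved gave 0.56 ± 0.17, under the fold limit. Slc16a4, without an established substrate, averaged 6.15 ± 1.7 in Lipo-CGS, 5.2 ± 1.35 in Lipo, 2.21 ± 0.729 in Saline and 2.63 ± 0.549 FPKM in Uninvolved chondrocytes (SD, n = 3 each) and rose in all 4. Its call in Lipo against Uninvolved (0.85 ± 0.25, adjusted p = 0.0129) was lost without Lipo replicate 3 (0.0526) or Uninvolved replicate 2 (0.0574). Bsg, the escort of monocarboxylate carriers to the membrane, rose in Lipo-CGS by 0.71 against Uninvolved and 0.72 against Saline (adjusted p = 0.00859 and 0.0104), and in Lipo it changed by 0.13 and 0.15. The difference of Lipo-CGS from Lipo was 0.58 (adjusted p = 0.143), not called.

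The 2 carriers of nucleosides and nucleobases were called in different comparisons. In Lipo-CGS 1 rose against Uninvolved and 1 against Saline (all genes 11.7% and 8.23%). In Lipo 0 rose against Uninvolved and 1 against Saline (14.1% and 10.6%). Falls numbered 0 (10.3% to 16.3% of all genes), and 2 members are too few to set against these shares. The purine nucleobase carrier Slc43a3 measured 16.1, 10.9 and 19.97 in Lipo-CGS, 4.51, 12.6 and 13.6 in Lipo, 4.14, 6.97 and 5.25 in Saline and 6.95, 5.9 and 6.13 FPKM in Uninvolved chondrocytes. Lipo replicate 1 lay among the libraries without liposomes, and the other liposome libraries lay above them. It rose in Lipo-CGS against Uninvolved (1.20 ± 0.35, adjusted p = 0.0135) and Saline (1.43 ± 0.35, adjusted p = 0.00818), the first call being lost without Lipo-CGS replicate 3 (adjusted p = 0.0551). The lysosomal nucleoside carrier Slc29a3 averaged 7.3 ± 0.494 in Lipo-CGS, 7.65 ± 1.03 in Lipo, 4.88 ± 0.175 in Saline and 5.02 ± 0.912 FPKM in Uninvolved chondrocytes (SD, n = 3 each) and rose in Lipo against Saline (0.59 ± 0.13, adjusted p = 0.00364), a call that went under the fold limit without Lipo replicate 2 (0.50) or Saline replicate 1 (0.57).

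Of the 10 carriers of sugars and sugar phosphates, 2 rose in Lipo-CGS and 2 in Lipo against Uninvolved (all genes 11.7% and 14.1%), 3 in Lipo-CGS and 1 in Lipo against Saline (8.23% and 10.6%), and 0 fell (10.3% to 16.3%). Slc37a2, a sugar phosphate exchanger of the endoplasmic reticulum, measured 1.95, 1.31 and 1.55 in Lipo-CGS, 0.67, 1.67 and 1.69 in Lipo, 0.47, 0.54 and 0.69 in Saline and 0.44, 0.35 and 0.46 FPKM in Uninvolved chondrocytes. Lipo replicate 1 touched the Saline range, and the other liposome libraries were above all others. It rose in Lipo-CGS against Uninvolved (1.19 ± 0.23, adjusted p = 0.00186) and Saline (0.97 ± 0.23, adjusted p = 0.00749) and in Lipo against Uninvolved (0.95 ± 0.23, adjusted p = 0.00487). Its Lipo rise over Saline (0.74 ± 0.23, adjusted p = 0.0226) was lost without any 1 of Lipo replicates 2 (0.0841) and 3 (0.0910) and Saline replicates 1 (0.0697) and 2 (0.0547). Slc37a2 too reached the level through liposome libraries, so that its direction was in part fixed by the choice. It is in each of the class counts of rises above, and the 1 rise in Lipo against Saline is its own. Slc45a4 averaged 24.7 ± 2.44 in Lipo-CGS, 19.9 ± 4.78 in Lipo, 13.9 ± 1.6 in Saline and 12.4 ± 3.73 FPKM in Uninvolved chondrocytes (SD, n = 3 each) and rose in Lipo-CGS against Uninvolved (0.99 ± 0.21, adjusted p = 0.00251) and Saline (0.80 ± 0.21, adjusted p = 0.0104). In Lipo against Uninvolved (0.66 ± 0.21, adjusted p = 0.0167) it lost the call without Lipo replicate 2 (0.0616) or 3 (0.0694) or Uninvolved replicate 1 (0.0728) or 2 (0.0670). Slc50a1, a sugar uniporter, averaged 29.0 ± 1.61 in Lipo-CGS, 29.7 ± 1.43 in Lipo, 36.5 ± 2.76 in Saline and 43.1 ± 9.66 FPKM in Uninvolved chondrocytes (SD, n = 3 each) with no call, every liposome library being below every other one. Slc37a3 and the glucose and dehydroascorbate carrier Slc2a10 had no call either.

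The carriers that feed the Golgi and endoplasmic reticulum with nucleotide sugars, ATP and acetyl-CoA had 0 calls among 12 members in each of the 4 comparisons with limma, while 7 of the 12 in Lipo-CGS against Uninvolved had an unadjusted p under 0.05 (56.6% of all genes), 6 in Lipo against Uninvolved (60.9%), 7 in Lipo-CGS against Saline (49.6%) and 4 in Lipo against Saline (53.8%). The acetyl-CoA carrier Slc33a1 came nearest. It measured 22.8, 24.03 and 25.1 in Lipo-CGS, 23.2, 28.3 and 27.03 in Lipo, 16.7, 18.5 and 16.5 in Saline and 16.96, 16.5 and 20.2 FPKM in Uninvolved chondrocytes, with 0.58 ± 0.10, adjusted p = 0.00127 in Lipo against Saline. The UDP-N-acetylglucosamine carrier Slc35a3 stayed at 7.02 to 11.7 FPKM, Slc35a4 at 36.3 to 48.3 FPKM and the ATP carrier Slc35b1 of the endoplasmic reticulum at 78.5 to 124 FPKM. With equal totals, 3 of the 12 rose in Lipo against Uninvolved. Among the 7 orphan members of family 35, Slc35e4 fell in all 4 comparisons. It measured 20.4, 22.5 and 19.9 in Lipo-CGS, 29.2, 19.8 and 22.5 in Lipo, 37.7, 32.01 and 39.6 in Saline and 34.6, 42.1 and 32.5 FPKM in Uninvolved chondrocytes, the liposome libraries all below the others. Its fall was -0.78 ± 0.14, adjusted p = 0.00142 in Lipo-CGS and -0.61 ± 0.14, adjusted p = 0.00402 in Lipo against Uninvolved. The Lipo call against Uninvolved went under the limit with equal totals (-0.37) and without Lipo replicate 2 (-0.49) or 3 (-0.58) or Uninvolved replicate 2 (-0.50). Against Saline the changes were -0.78 ± 0.14, adjusted p = 0.00226 in Lipo-CGS and -0.61 ± 0.14, adjusted p = 0.00538 in Lipo, and the Lipo call went under the limit with equal totals (-0.48) and without Lipo replicate 2 (-0.49) or 3 (-0.58) or Saline replicate 3 (-0.55). Slc35f2 fell in Lipo against Uninvolved (-0.64 ± 0.13, adjusted p = 0.00159), not with equal totals (-0.41), and Slc35e3 had no call at 40.2 to 61.0 FPKM. Slc35f5 rose, in Lipo against Saline by 0.77 ± 0.09 (adjusted p = 0.000298). Its rises in Lipo against Uninvolved and in both liposome groups against Saline held in every alternative fit that could be made. In all, 2 of the 7 rose and 1 fell in Lipo-CGS and 1 rose and 2 fell in Lipo against Uninvolved. Against Saline, 1 rose and 1 fell in each liposome group. Of all genes 8.23% to 14.1% rose and 10.3% to 16.3% fell in these.

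In the smaller classes, the ascorbate carrier Slc23a2 averaged 12.3 ± 1.34 in Lipo-CGS, 13.3 ± 2.09 in Lipo, 10.9 ± 1.2 in Saline and 8.84 ± 0.71 FPKM in Uninvolved chondrocytes (SD, n = 3 each), with its largest difference in Lipo against Uninvolved (0.56 ± 0.13, adjusted p = 0.00361) just under the fold limit. The multivitamin carrier Slc5a6 stayed at 11.3 to 13.7 FPKM. Slc19a2 rose in Lipo against Saline (0.77 ± 0.12, adjusted p = 0.000695), in every alternative fit that could be made. Of the 6 vitamin carriers, 1 rose in Lipo against Uninvolved (all genes 14.1%) and 1 in Lipo against Saline (10.6%). In Lipo-CGS 0 rose against either (11.7% and 8.23%), and 0 fell in the 4 comparisons (10.3% to 16.3%). The lysosomal sialic acid carrier Slc17a5 measured 7.84, 7.94 and 9.38 in Lipo-CGS, 6.83, 8.53 and 9.15 in Lipo, 5.35, 4.97 and 5.35 in Saline and 5.77, 5.57 and 5.68 FPKM in Uninvolved chondrocytes, all liposome libraries above the others. It rose in Lipo-CGS (0.63 ± 0.11, adjusted p = 0.00185) and Lipo (0.59 ± 0.11, adjusted p = 0.00181) against Saline, close to the fold limit, under which Lipo-CGS went without its replicate 3 (0.55) and Lipo without its replicate 2 (0.56) or 3 (0.51) or Saline replicate 2 (0.56). The lysosomal histidine and peptide carrier Slc15a4 averaged 9.55 ± 0.663 in Lipo-CGS, 9.46 ± 0.673 in Lipo, 6.71 ± 0.275 in Saline and 6.39 ± 0.644 FPKM in Uninvolved chondrocytes (SD, n = 3 each), without a call, and the vesicular nucleotide carrier Slc17a9 stayed at 10.4 to 16.7 FPKM. The phosphate carrier Slc20a2, the single member of its class, was at 6.90 to 11.6 FPKM with no call.

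The drug was compared in Lipo-CGS against Lipo. With limma, 0 members rose and 0 fell, where 0.0791% of all genes rose and 0.0879% fell. At an unadjusted p under 0.05 there were 31 members (18 higher and 13 lower), while 18.4% of all genes had one. The median member changed by 0.00. The smallest adjusted p belonged to the choline transporter-like Slc44a3, with 0.96 ± 0.20, adjusted p = 0.0704. Slc44a3 passed when libraries were weighted by quality (adjusted p = 0.0199) and without Lipo replicate 2 (adjusted p = 0.0479). Slc43a1 followed with 0.56 ± 0.13, adjusted p = 0.0746, at 2.85, 3.0 and 2.79 FPKM in Lipo-CGS against 1.46, 1.88 and 2.06 FPKM in Lipo. Slc6a17 had 0.78 ± 0.19, adjusted p = 0.0856, at 4.13, 3.93 and 3.63 FPKM in Lipo-CGS against 1.35, 2.84 and 2.2 FPKM in Lipo. Slc38a3 had 0.95 ± 0.25, adjusted p = 0.101, at 11.1, 8.35 and 8.93 FPKM in Lipo-CGS against 2.77, 6.6 and 5.25 FPKM in Lipo. In these 4 the Lipo-CGS and Lipo libraries did not overlap, and for all 4 Lipo replicate 1 was the lowest of the 3 Lipo libraries. With weighted libraries Slc6a17 and Slc38a3 passed too (adjusted p = 0.0282 and 0.0354).

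Of the other members with small p-values, Slc8a1 was lower in Lipo-CGS than in Lipo (-0.88 ± 0.25, adjusted p = 0.11), as was Slc7a1 (-0.36 ± 0.12, adjusted p = 0.146, 10.8, 11.2 and 9.55 FPKM in Lipo-CGS against 11.98, 14.3 and 14.7 FPKM in Lipo). Higher in Lipo-CGS were the mitochondrial glycine carrier Slc25a38 (0.36 ± 0.11, adjusted p = 0.122, 19.5, 17.7 and 18.4 FPKM in Lipo-CGS against 13.98, 13.5 and 15.6 FPKM in Lipo), Slc27a1 (0.40 ± 0.13, adjusted p = 0.136) and Slc25a29, a mitochondrial carrier of basic amino acids (0.58 ± 0.18, adjusted p = 0.138, 2.66, 2.64 and 2.54 FPKM in Lipo-CGS against 1.07, 1.99 and 1.8 FPKM in Lipo). None of these 5 passed, and with weighted libraries Slc8a1 did (adjusted p = 0.0444). The sugar carrier Slc45a1 measured 1.48, 1.29 and 1.81 in Lipo-CGS, 0.67, 0.6 and 0.77 in Lipo, 0.9, 1.18 and 0.21 in Saline and 1.35, 1.43 and 1.05 FPKM in Uninvolved chondrocytes, so that Lipo libraries were below both Lipo-CGS and Uninvolved libraries and Saline replicate 3 was the lowest of the 12. Its difference of Lipo-CGS from Lipo was 0.77 ± 0.27, adjusted p = 0.163 and passed without Saline replicate 3 (adjusted p = 0.0463). Its rise in Lipo-CGS against Saline (0.76 ± 0.27, adjusted p = 0.0393) was lost without Saline replicate 3 (0.105), without any 1 of the Lipo-CGS libraries (0.0835, 0.0585 and 0.121) and without Uninvolved replicate 2 (0.0504). For Slc39a8 and Slc43a3, whose Lipo replicate 1 was low, the differences of Lipo-CGS from Lipo were 0.74 ± 0.35, adjusted p = 0.289 and 0.69 ± 0.35, adjusted p = 0.314.

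**Figure D4:**
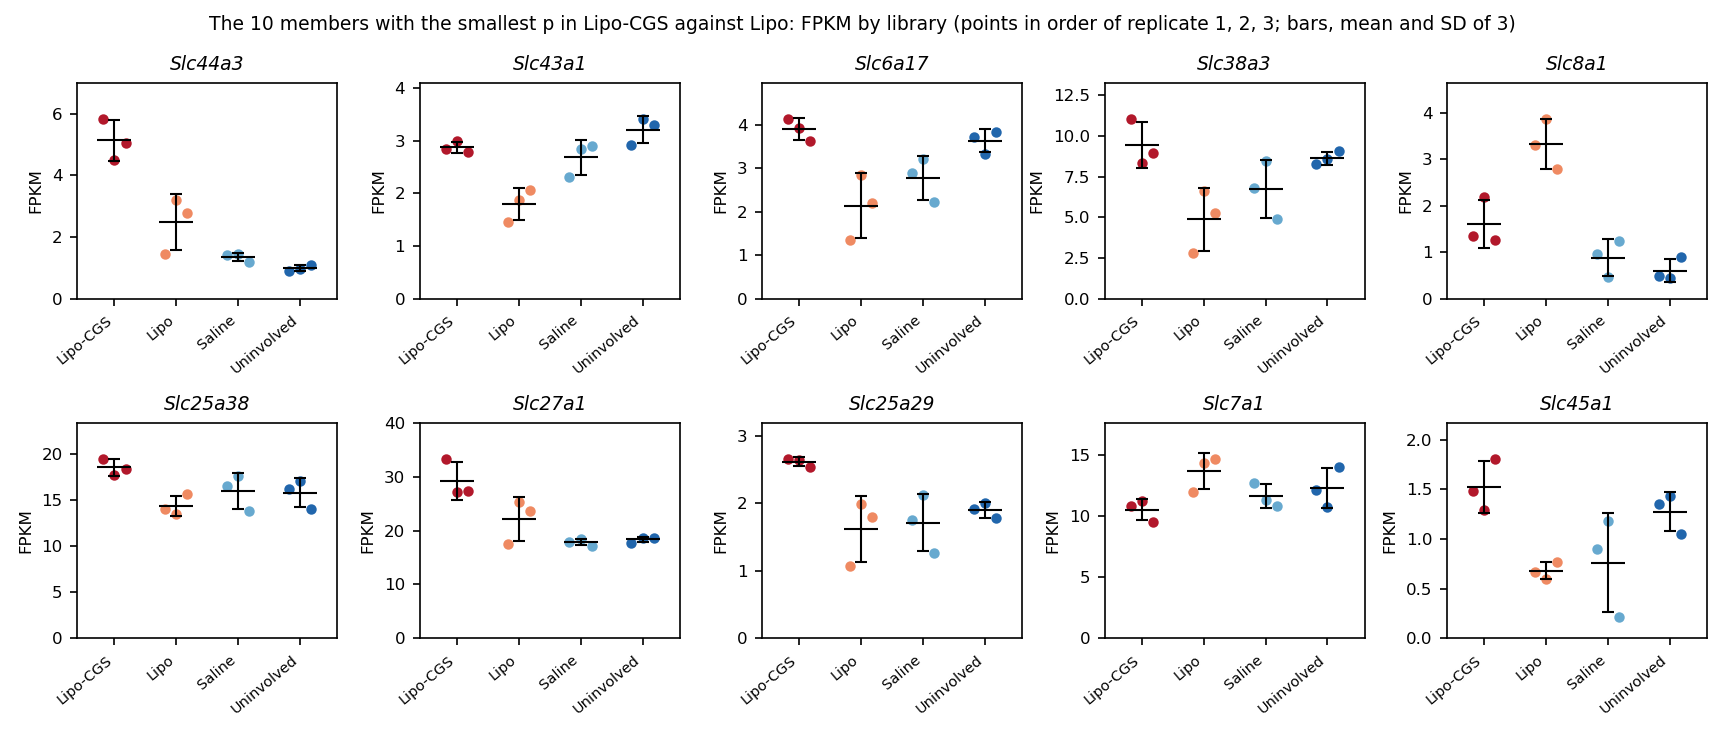
FPKM by library for the 10 members with the smallest p in Lipo-CGS against Lipo, with points for replicates 1 to 3 from left to right in each group and bars for mean and SD of the 3 libraries. In each panel the Lipo-CGS and Lipo libraries do not overlap, and in Slc44a3, Slc38a3, Slc6a17 and Slc43a1 the Lipo-CGS libraries exceed the Lipo libraries, although none passed with limma.

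A2A receptors raise cyclic AMP, whose response element has the palindromic letters TGACGTCA. This motif was therefore searched in the 250 bases before the start of each member in RefSeq (GRCr8). It was found in 5 of 130 members with a promoter (3.85%), against 531 of 33469 promoters (1.59%). The 33469 were not limited to expressed genes or to 1 promoter per gene, so the shares come from unlike sets. A match describes letters only. The 5 windows of 30 bases are shown 5′ to 3′ along the gene's strand, with the motif in capitals.
Slc25a25: tctgcaagcagTGACGTCAgtcctgatctt
Slc25a33: gccgcgccccgTGACGTCAcgaccctgcct
Slc38a6: tctgcggatggTGACGTCAtcactgttggc
Slc45a1: ggatgcagccgTGACGTCAcggccccgccc
Slc46a1: ggtgcctgaagTGACGTCAcaccacaggga
They lie at chr3:36116721-36116750 (minus strand), chr5:165503039-165503068 (minus), chr6:97723379-97723408 (plus), chr5:166412236-166412265 (minus) and chr10:63859383-63859412 (plus). In Lipo-CGS against Lipo these genes, chosen by the motif, changed by -0.06, 0.22, 0.24, 0.77 and -0.03 on the log2 scale. None passed. Besides the sugar carrier Slc45a1 the list holds the mitochondrial carriers Slc25a25 of ATP-magnesium and Slc25a33 of pyrimidine nucleotides, the amino acid family member Slc38a6 and the proton-coupled folate carrier Slc46a1. Not to find the motif in other members says only that these letters are not in that window.

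No carrier was called for rupture with saline injection. In Saline against Uninvolved, 0 members rose and 0 fell with limma, as did 0 of all 11373 genes in either direction (0.0% and 0.0%). At an unadjusted p under 0.05 there were 9 members (1 higher and 8 lower), while 4.98% of all genes had one. The median member changed by -0.04, with 70 members above 0 and 100 below. Slc7a2 and Slc6a6 differed by 0.47 ± 0.24, adjusted p = 0.809 and 0.47 ± 0.23, adjusted p = 0.809, with Uninvolved replicate 3 above every Saline library in both. Saline replicate 3 was the lowest of the 12 libraries in 33 members, more than any other library.

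Leaving out single libraries changed the number of members called. With Uninvolved replicate 3 left out, 10 members rather than 6 fell in Lipo-CGS against Uninvolved, and without Lipo replicate 1, 8 rather than 5 fell in Lipo against Saline. The calls that held in every alternative fit that could be made numbered 21 rises and 4 falls in Lipo-CGS against Uninvolved, 15 and 4 in Lipo against Uninvolved, 16 and 3 in Lipo-CGS against Saline, and 17 and 3 in Lipo against Saline. Among them were Slc7a2, Slc6a6, Slc4a4 and Slc24a3 as rises and Slc25a5 and Slc25a10 as falls in each of the 4.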

How the data were processed

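The authors sequenced single reads of 50 bases from 12 libraries, aligned them with STAR (version 2.4.5a) to the rat genome Rnor_6.0, screened for contaminants with FastQ Screen (version 0.5.2) and counted reads per gene with featureCounts (Subread 1.4.6-p3), while the submitters' processing notes name HTSeq. Whether counting used strand is not given in the sources used here, so overlapping and antisense genes cannot be told apart. They deposited FPKM per gene and library. Columns were assigned to libraries by their names, and 0 columns were left without a sample. Median-of-ratios factors of the deposited FPKM were 0.991 to 1.01, so totals differ while typical genes are level.

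The 11373 of 28546 genes that reached 1 FPKM in 3 or more libraries were tested as log2(FPKM + 0.5) with limma 3.58.1 (R 4.3.3), all 12 libraries in 1 fit of 4 group means with a mean-dependent variance trend, 8 residual and 3.65 prior degrees of freedom, two-sided, with Benjamini-Hochberg adjustment over all genes tested. Called means adjusted p under 0.05 and fold over 1.5. Values with ± after a log2 fold change are standard errors. In an exact permutation of 3 against 3 libraries p cannot go below 0.1, so single-gene permutation tests were not used. Tested on data simulated for Lipo against Uninvolved, 50 of 50 genes lowered and 50 of 50 raised by 2 on the log2 scale were called, 48 and 47 of 50 shifted by 1, and 5 genes falsely.

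Members and substrate classes, and the lists of partners and cell markers, were chosen with earlier results of these data known. Named are the called members (where more than 24 were called, the 12 largest rises and 12 largest falls), the 10 smallest p-values in Lipo-CGS against Lipo, the 2 members highest in each class, and a list of 35 genes, of which 31 were members. A few members outside this rule are named beside counts, a choice made with their values in view. Alternatives were other pseudocounts, filters, scalings, thresholds, fits and each library left out. Upstream sequences are RefSeq's (GRCr8), matched by symbol. FPKM hold no counting error, so depth limits for weak genes are not given. Results of 2 members are not reported here by name, and they remain in the counts.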

Additional observations from a re-analysis of the deposited data

How the results depend on the processing

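Of 2468 alternative values of 111 gene results, 2367 kept direction and side of the threshold, 95 lost the call, 6 gained it and 0 changed direction. Leaving out a library of a group not compared cannot change the fold change, and the comparisons share libraries. The tally is therefore weighted toward no change and is not a measure of stability. Equal library totals, chosen after seeing the data, gave 49 rises in Lipo-CGS against Uninvolved, 55 rises and 4 falls in Lipo against Uninvolved and 43 rises in Lipo against Saline. Without a fold limit, rises and falls were 58 and 18, 62 and 24, 59 and 15, and 57 and 16 in Lipo-CGS and Lipo against Uninvolved and then against Saline. With an unadjusted p under 0.0005 beside the fold, rises were 17 and 14 in Lipo-CGS and Lipo against Uninvolved and 14 and 16 against Saline, and falls 7 in Lipo against Uninvolved and 3 in Lipo against Saline. A filter at 5 FPKM, which tests fewer genes, left 7 falls in Lipo against Uninvolved and 17 rises in Lipo against Saline. Weighted libraries gave 3 rises and 1 fall in Lipo-CGS against Lipo. For the rules of this paragraph other than equal totals, the shares of all genes are not given here. The cause of the other moves was not tested.

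With each library left out in turn, rises numbered 0 to 1 in Lipo-CGS against Lipo (1 without Lipo replicate 2 and 1 without Saline replicate 3) with 0 falls, 26 to 35 in Lipo-CGS and 21 to 36 in Lipo against Uninvolved, and 26 to 32 in Lipo-CGS and 23 to 38 in Lipo against Saline. Falls numbered 6 to 10 and 9 to 14 against Uninvolved and 5 to 7 and 5 to 8 against Saline. In Saline against Uninvolved 0 members were called under any of these. Replicate numbers are not stated to pair the libraries. Over 18 pairs of the same number the deviations correlated at -0.216 to 0.198, 2 of them over 0.1. Over 36 pairs of different numbers they correlated at -0.38 to 0.312, 10 of them over 0.1. With 3 libraries per group this cannot exclude rats shared between libraries. With the replicate block, rises and falls were 28 and 6 in Lipo-CGS and 27 and 11 in Lipo against Uninvolved, 30 and 6 in Lipo-CGS and 28 and 5 in Lipo against Saline, and 0 and 0 in Lipo-CGS against Lipo.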
